A study of Mus musculus with 2 samples.

Results

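Nuclei with the markers of mesothelium, which in the heart is the epicardial cell sheet on its surface, made up 747 of the 18066 nuclei kept from mouse hearts after PD-1 inhibitor treatment or vehicle. Both groups were male C57BL/6 mice, 8 weeks old at the start. The control group was injected with PBS, and the PD-1 inhibitor group was given an anti-mouse PD-1 antibody at 5 mg/kg by intraperitoneal injection. Both were injected on days 1 and 14 of a cycle of 28 days. Single-nucleus RNA sequencing gave 1 library per group, and how many hearts went into a library is not given in the sources used here. With 1 library each, a difference between the groups has no replicate check and no test, and every interval below is a 95% interval for counting error only.

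A nucleus was counted as mesothelial when at most 20% of its UMIs (unique transcript molecules) were mitochondrial, when it held at least 3 UMIs of Msln, Upk3b, Wt1, Muc16, Lrrn4, Bnc1 and Upk1b together, and when this sum was larger than each of 3 opposing sums. The opposing sums were Pdgfra, Col1a1, Col3a1 and Dcn for fibroblasts, Pecam1, Flt1 and Ptprb for endothelial cells, and Mrc1, F13a1 and Cd163 for phagocytes. The rule found 377 of 10114 control nuclei and 370 of 7952 PD-1 inhibitor nuclei. Of 48 cell barcodes that occurred in both libraries, 1 was mesothelial in control, 2 were mesothelial in the PD-1 inhibitor library and 0 were mesothelial in both.

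The epicardium is a mesothelium, a single layer of epithelial cells that faces the pericardial fluid. Its cells keep both epithelial features, such as keratins and cell junctions, and mesenchymal ones, and they make a glycoprotein coat in which mesothelin and the mucin encoded by Muc16 take part. During development the epicardium depends on the transcription factor Wt1 and on retinoic acid made by Aldh1a2, gives rise to fibroblasts and mural cells, and sends signals such as semaphorins, Wnt ligands and R-spondin to the muscle below.

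Mesothelial nuclei were 3.73% of control nuclei (interval 3.37 to 4.12%) and 4.65% of PD-1 inhibitor nuclei (interval 4.20 to 5.14%). The ratio of the shares was 1.25 (interval 1.08 to 1.44). With the same kind of rule, the ratio was 1.16 for fibroblast, 0.993 for endothelial and 0.979 for phagocyte nuclei. The mesothelial nuclei of the PD-1 inhibitor library were also read more deeply, with a median of 1854.5 UMIs against 1392 in control, while the medians of all other nuclei were 1045 and 1010. A deeper nucleus reaches 3 marker UMIs more easily. When each nucleus was thinned to 500 UMIs and 2 marker UMIs were asked for, 344 control and 325 PD-1 inhibitor nuclei passed. The shares were then 3.40% and 4.09%. Summed over nuclei, 674356 mesothelial UMIs were available in control and 893188 after PD-1 inhibitor.

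The values that follow for the 7 marker genes describe what the nuclei were selected on. A mesothelial nucleus held a median of 12 marker UMIs in control and 17 after PD-1 inhibitor, which was 0.915% and 0.942% of its UMIs. At least 4 of the 7 markers were present in 68.2% of control and 77.3% of PD-1 inhibitor nuclei, and 19 and 13 nuclei held only 1 of them. Just inside the threshold, 20 control and 21 PD-1 inhibitor nuclei had exactly 3 marker UMIs. In these, mesothelial identity genes outside the rule took a median of 0.787% and 0.517% of the UMIs. Just outside, 40 and 36 nuclei had 2 marker UMIs, and the median was 0.180% and 0.212%. Nuclei with 4 or more marker UMIs had 2.78% and 3.08%. A further 157 control and 145 PD-1 inhibitor nuclei had enough marker UMIs but a fibroblast sum at least as large, and their identity genes took a median of 2.38% and 2.61%. The fibroblast comparison thus set aside nuclei with identity genes far above those of nuclei just under the threshold.

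Among the marker genes, Upk3b, a uroplakin of the apical membrane, was highest, with 2567 CPM (UMIs of a gene per 1000000 UMIs of these nuclei) in control and 2850.5 after PD-1 inhibitor. All other nuclei had 59.4 and 82.0. Muc16, a membrane mucin, had 2032 and 2047 CPM in mesothelial nuclei, and its ratio to other nuclei, at least 55.1 in both libraries, was the highest of all genes compared. Msln, which encodes mesothelin, had 1609 and 1823, and Upk1b, a tetraspanin partner of the uroplakins, had 1397 and 1348. Lrrn4 had 738 and 796, and Bnc1, a zinc finger transcription factor of epithelia, had 268 and 299. Wt1 differed most between the libraries. It had 1047 CPM in control (interval 971 to 1127) and 792 after PD-1 inhibitor (interval 734 to 852), a log2 ratio of -0.40 (interval -0.56 to -0.25). Wt1 was also lower in all other nuclei, with 40.1 and 31.4 CPM. Upk3b had a UMI in 78.2% and 84.9% of mesothelial nuclei, and in 2.73% and 3.87% of endothelial nuclei, which should lack it. After thinning to 500 UMIs the shares were 56.2% and 64.1% in mesothelial nuclei and 1.39% and 2.08% in endothelial nuclei, whose median depths were 1066.5 and 1092.5 UMIs.

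The label was checked against 30 mesothelial identity genes that the rule did not use. Of these, 22 had at least 100 mesothelial UMIs, a filter that favours genes that are high there, and 20 of the 22 were more than 4-fold higher in mesothelial than in all other nuclei in both libraries. Of the 8 left out by it, Slpi, Anxa8, Lgals7 and Cldn10 had ratios of at least 4.26 in both libraries. Podxl, with 28.2 and 22.4 CPM against 131 and 161, and Prg4, with 25.2 and 13.4 against 59.4 and 58.2, were lower than elsewhere. Calb2 and Cldn1 had 1 and 10 UMIs in all. Over all genes with at least 50 mesothelial UMIs in each library, which again favours those high in mesothelial nuclei, 257 of 3244 (7.92%) were that much higher and 16 (0.493%) that much lower. Igfbp5, a secreted binder of insulin-like growth factors, was the most abundant identity gene with 9470 CPM in control and 10239 after PD-1 inhibitor, against 737 and 927 in other nuclei. C3, the central complement component, had 4812 and 4717 against 507 and 604. Igfbp6 had 3218 and 3813 against 176 and 208. Sulf1, an extracellular heparan sulfatase, had 2522 and 2529 against 315 and 333. The keratin Krt7 had 390 and 425 against 8.45 and 11.9, and Krt8 had 188 and 167 against 4.87 and 5.13. The members below 4-fold were Gas1, at 3.65-fold or more, and Cav1, which endothelial cells also use, at 317 and 447 against 267 and 227. The opposing genes, which the rule also used, were not all low in mesothelial nuclei. Col3a1 had 1867 and 1895 CPM, at least 1.58 times its level in other nuclei, and Dcn had 2211 and 2583 against 2809 and 4265. Col1a1 had 159 and 215 against 391 and 427. Pdgfra had 29.7 and 13.4, against 210.3 and 238 elsewhere.

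**Figure D1:**
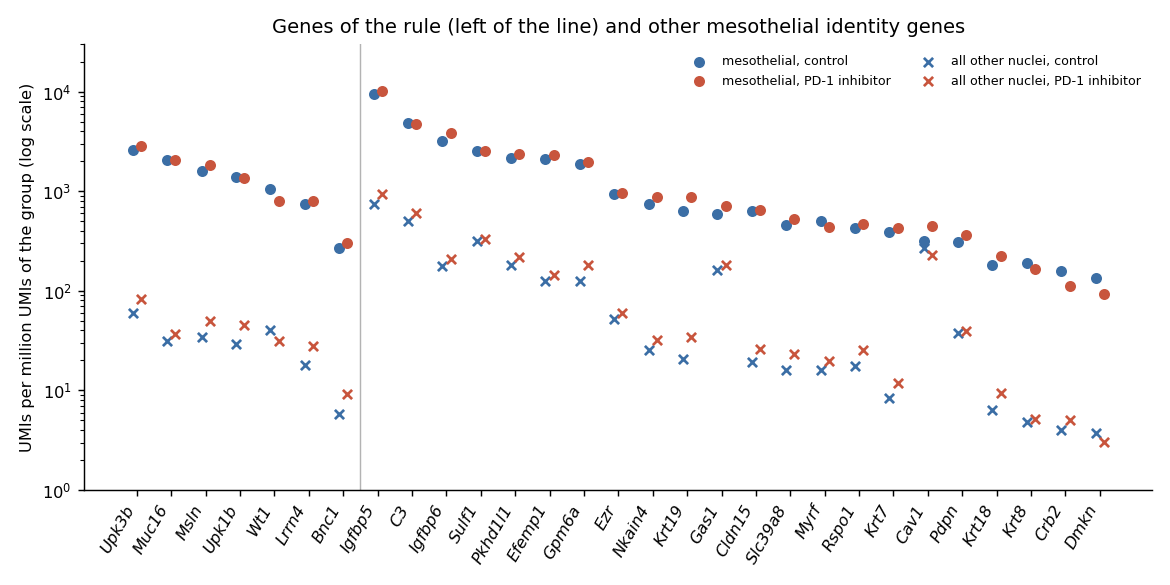
CPM on a log scale for the 7 genes of the rule, left of the line, and the identity genes outside it with at least 100 UMIs, in mesothelial nuclei (circles) and all other nuclei (crosses), in the control (blue) and PD-1 inhibitor (red) libraries. The circles stand above the crosses for every gene shown, by the least for Cav1, and the blue and red symbols of a gene lie close together.

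Outside the rule, the genes with the highest mesothelial to other ratios are given by name, without a common theme. Gm26873, an antisense transcript, was first, with at least 51.5-fold, and its reads cannot be told apart from those of an overlapping gene if strand was not used in counting. Calcb, which encodes a calcitonin gene-related peptide, followed with 141 and 144 CPM against 2.76 and 1.71 in other nuclei. Ckmt1, a mitochondrial creatine kinase, had 126 and 156 against 1.46 and 3.22. Pax9, a transcription factor best known from pharyngeal pouches and teeth, had 123 and 138 against 2.36 and 2.92. Cdh3, which encodes P-cadherin, had 173 and 235 against 4.06 and 5.63. Slc26a3, a chloride and bicarbonate exchanger, was the most abundant of these 15 genes with 561 and 506 CPM against 9.50 and 12.9. The remaining members were Clic3, Plet1, Chst4, Cst9, Gng4, Scel, Lrrc31, Krt7 and Krt8, with lower ratios between 32.3-fold and 39.9-fold. The neuronal splicing regulator Rbfox1, named after its values were seen, had 4762 and 4641 CPM against 181 and 175.

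The ratios of mesothelial to other nuclei were compared between the libraries with the genes of the rule left out, since the rule fixed theirs. The 50 genes with the highest mesothelial to other ratio in control and the 50 in the PD-1 inhibitor library had 43 genes in common, 86% of each list. Across the 3234 genes, Spearman's rho of the control and PD-1 inhibitor ratios was 0.86, given as a description, since genes are not independent. Of the 250 genes outside the rule that were more than 4-fold higher, 221 (88.4%) were also more than 4-fold higher against fibroblast nuclei alone, where 247 genes passed and the shared ones were 89.5%. Fibroblast nuclei were themselves part of all other nuclei, 3242 of 9737 in control and 2950 of 7582 after PD-1 inhibitor. The 2 comparisons thus share nuclei, which fixes at least part of this overlap, and it is no separate check.

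Clustering on 2000 variable genes divided the mesothelial nuclei into 5 clusters. Since genes of the same nuclei made the clusters, their leading genes are descriptions. Cluster 1 held 95 control and 111 PD-1 inhibitor nuclei, had the highest marker share at 1.21% of UMIs, and was led by Gdf2, Fam110a, Timp1, Med28 and Sfrp1. Timp1 is a secreted inhibitor of matrix metalloproteinases and Sfrp1 a secreted Wnt antagonist. Cluster 2, the shallowest of the clusters 1 to 3 with a median of 1215 UMIs, held 204 and 139 nuclei and was led by Gnl2, Fam193b, Gtf2e2, Rprd1a and Drg1, by folds of at most 2.45. Cluster 3, with a median of 2845 UMIs, held 33 nuclei in control and 72 after PD-1 inhibitor. That was 8.75% and 19.5% of the mesothelial nuclei. The leading genes, on 14 to 48 UMIs each, were Prlr, the prolactin receptor, Grm7, Slc2a3, Gpr173 and Gli2, a transcription factor of hedgehog signalling. The difference in share depends on the clustering resolution. At a lower one (Leiden 0.3) there were 4 clusters and none had the size of cluster 3. The largest held 299 control and 259 PD-1 inhibitor nuclei. At a higher one (Leiden 1) a cluster of 33 and 69 nuclei was found.

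Clusters 4 and 5 carried genes of other cell types. Cluster 4 (20 and 19 nuclei) was led by the cardiomyocyte genes Trim55, Paqr9, Tecrl and Apobec2 and by Gm50100. In it, Ttn, Ryr2, Myh6 and Tnnt2 took 33450 CPM, against 1007 to 1739 in the other clusters, and the median of marker UMIs was 5. Cluster 5 (25 and 29 nuclei) was led by Iqgap2, Pparg, Aoah, Agmo and Ntrk3, and 16 of its nuclei held only 1 of the 7 markers. Among the genes that followed were the macrophage genes Adgre1 and Ctss, and Ebf1, with 112 UMIs in 33.3% of the nuclei. Markers of several cell types were raised in cluster 5. Phagocyte markers had 3851 and 2157 CPM, adipocyte markers 1674 and 1026, and mural markers 1794 and 870. In all mesothelial nuclei these were 1099 and 1064, 133 and 70.5, and 286 and 251. The doublet caller Scrublet marked 22 control and 16 PD-1 inhibitor mesothelial nuclei, of which 12 and 5 were in cluster 5. Because both clusters met the rule they stayed in, and values without them are given wherever they move a result.

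**Figure D2:**
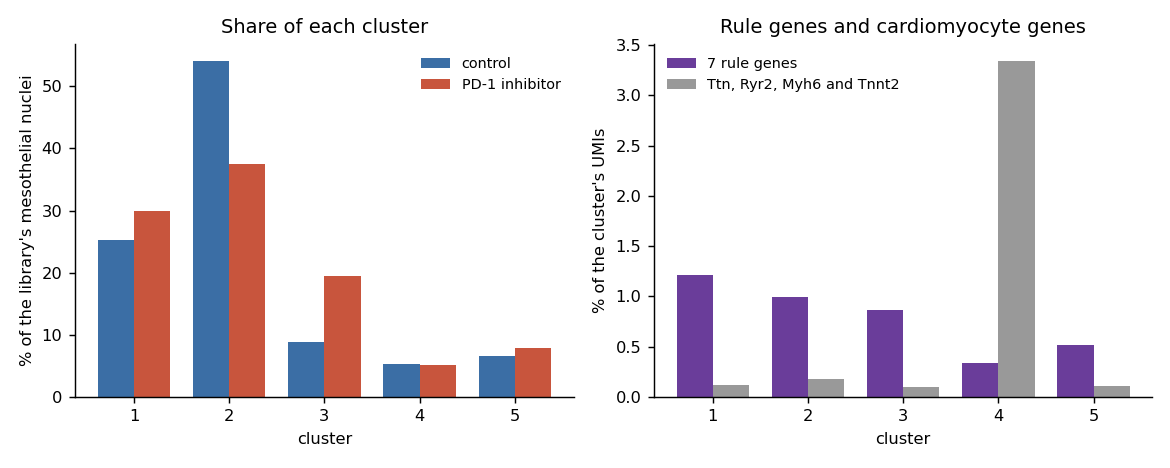
Left, the share of each cluster among the mesothelial nuclei of the control and PD-1 inhibitor libraries, in percent. At the lower Leiden resolution of 0.3, none of the clusters had the size of cluster 3. Right, the share of UMIs in each cluster taken by the 7 genes of the rule and by 4 cardiomyocyte genes, in percent; cluster 3 is 8.75% of control and 19.5% of PD-1 inhibitor mesothelial nuclei, and cardiomyocyte genes stand out in cluster 4.

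The comparison of the PD-1 inhibitor library with control asked which genes differed within mesothelial nuclei. Of 3851 genes with at least 100 mesothelial UMIs in both libraries together, 142 (3.69%) were more than 1.5-fold higher and 149 (3.87%) more than 1.5-fold lower, and the median log2 ratio was 0.02. Without clusters 4 and 5 the counts were 113 and 99. Identity genes stayed near the median of all genes. Of the 22 measured, 0 were past 1.5-fold in either direction, their median log2 ratio was 0.11, and the summed CPM of all 30 were 33026 in control and 35430.4 after PD-1 inhibitor. Krt19, a keratin of simple epithelia, had 630.2 and 864 CPM, a log2 ratio of 0.45 (interval 0.28 to 0.63). Igfbp6 had a log2 ratio of 0.24 (interval 0.17 to 0.32), and C3 one of -0.03 (interval -0.10 to 0.04).

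B2m, H2-D1 and H2-K1, which encode chains of MHC class I molecules that present antigen, were each higher by less than 1.5-fold in the PD-1 inhibitor library and in the same direction in clusters 1 to 3. B2m, which encodes the invariant light chain of class I molecules, had 1508 UMIs in control and 2840 after PD-1 inhibitor, or 2236 and 3180 CPM. Its log2 ratio was 0.51 (interval 0.42 to 0.60). The heavy chain genes H2-D1 and H2-K1 had log2 ratios of 0.45 (interval 0.35 to 0.55) and 0.43 (interval 0.34 to 0.52). H2-Q6, a further class I gene that was not on the list below, had 136 and 244 CPM and a log2 ratio of 0.83. The class I heavy chain genes are near-identical copies in part, so how reads were divided among them is uncertain, while B2m has no such copy.

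In all other nuclei the log2 ratio was 0.39 for B2m, 0.33 for H2-D1, 0.13 for H2-K1 and 0.04 for H2-Q6. For H2-K1 the ratio was 0.12 in fibroblast nuclei (interval 0.06 to 0.18), -0.06 in endothelial nuclei (interval -0.12 to 0.00) and 0.25 in phagocyte nuclei (interval 0.15 to 0.36). The mesothelial interval for H2-K1, from 0.34 to 0.52, overlapped that of phagocyte nuclei and lay above the others, and the difference between cell types was not tested. For B2m the phagocyte ratio, 0.60, was above the mesothelial one. After thinning to 500 UMIs, B2m had a UMI in 52.3% of control and 69.2% of PD-1 inhibitor mesothelial nuclei, against 41.4% and 49.4% of all other nuclei.

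Within clusters, B2m had 3561 CPM in control and 4807 after PD-1 inhibitor in cluster 1, 1704 and 2540 in cluster 2, and 1259 and 1968 in cluster 3. The log2 ratios were 0.43, 0.58 and 0.64. H2-D1 gave 0.45, 0.44 and 0.51, and H2-K1 gave 0.43, 0.46 and 0.56 in the same order. None of these 9 intervals reached 0, but the clusters come from the same 2 libraries and are not separate checks. The summed interferon and antigen presentation list described below, which holds these 3 genes, had intervals that included 0 in clusters 4 and 5. Its log2 ratio was 0.19 in cluster 4 (interval -0.13 to 0.51) and -0.07 in cluster 5 (interval -0.26 to 0.12). Cluster 1 had the highest level of all 3 genes in both libraries.

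**Figure D3:**
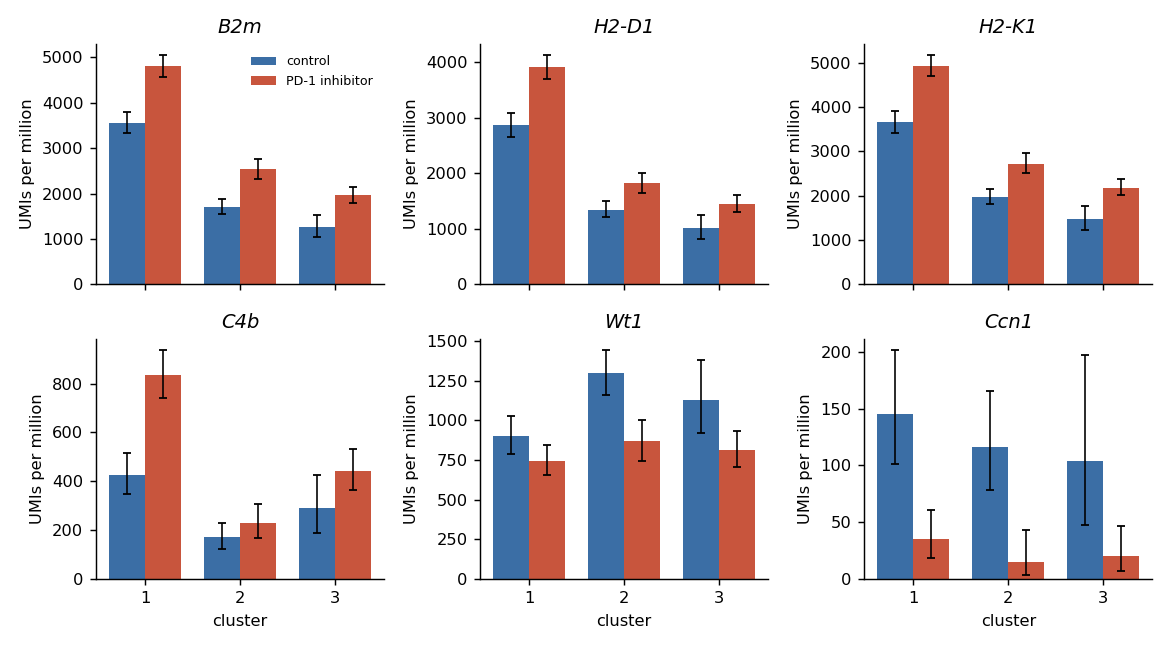
CPM of B2m, H2-D1, H2-K1, C4b, Wt1 and Ccn1 in clusters 1 to 3, in the control (blue) and PD-1 inhibitor (red) libraries; bars start at 0 and black lines are 95% counting intervals. The red bar is the higher one for B2m, H2-D1, H2-K1 and C4b and the lower one for Wt1 and Ccn1 in each of the clusters.

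The rest of the interferon and antigen presentation list gave values on both sides of 0. Of its 32 genes, 31 were in the files and 18 were measured, 7 of them below 0. Of the measured genes, 0 were past 1.5-fold in either direction, against 3.69% and 3.87% of all genes, and the median log2 ratio was 0.08. Over all 31, the summed CPM were 9308 in control and 11602 after PD-1 inhibitor, a log2 ratio of 0.32 (interval 0.27 to 0.36), and B2m, H2-K1 and H2-D1 held most of these UMIs. Oasl2, an interferon-induced antiviral gene, had 559 and 547 CPM and was at least 4.81-fold higher than in other nuclei in both libraries. Tap1, the peptide transporter that serves class I loading, had 57 UMIs in each library, a log2 ratio of -0.41, and Irf1, an interferon-responsive transcription factor, had 67 in each, also -0.41. Cd274, which encodes the PD-1 ligand PD-L1, was below the 100 UMIs asked for and is named after its values were seen. It had 53 UMIs in control and 23 after PD-1 inhibitor, or 78.6 and 25.8 CPM. The log2 ratio was -1.59 (interval -2.38 to -0.88), against -0.58 in all other nuclei. Cluster 5 held 10 of the 53 and 2 of the 23 UMIs. Without clusters 4 and 5 the ratio was -1.36, and with nuclei that failed on the fibroblast sum alone added back it was -0.85.

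The stretches before the start sites of the 3 class I genes are shown because these genes shared a direction. They are the 250 bases upstream of the RefSeq start in GRCm38.p6, read 5′ to 3′ on the gene's own strand. Capitals mark matches on either strand to the core of the interferon-stimulated response element (GAAA, any 2 bases, GAAA) or to the NF-kB consensus. B2m lies on chromosome 2, plus strand, and the window is chr2:122147437-122147686. H2-D1 lies on chromosome 17, plus strand, at chr17:35262844-35263093, and H2-K1 on the minus strand at chr17:34000348-34000597.
B2m: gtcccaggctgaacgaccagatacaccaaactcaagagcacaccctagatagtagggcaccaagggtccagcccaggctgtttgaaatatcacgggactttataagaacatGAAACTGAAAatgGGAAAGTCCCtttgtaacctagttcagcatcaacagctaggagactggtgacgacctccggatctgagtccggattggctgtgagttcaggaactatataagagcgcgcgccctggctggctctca
H2-D1: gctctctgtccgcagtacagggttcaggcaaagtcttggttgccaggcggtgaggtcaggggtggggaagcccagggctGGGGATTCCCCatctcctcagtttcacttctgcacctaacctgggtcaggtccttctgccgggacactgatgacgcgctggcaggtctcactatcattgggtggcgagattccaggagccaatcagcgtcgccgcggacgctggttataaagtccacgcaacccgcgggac
H2-K1: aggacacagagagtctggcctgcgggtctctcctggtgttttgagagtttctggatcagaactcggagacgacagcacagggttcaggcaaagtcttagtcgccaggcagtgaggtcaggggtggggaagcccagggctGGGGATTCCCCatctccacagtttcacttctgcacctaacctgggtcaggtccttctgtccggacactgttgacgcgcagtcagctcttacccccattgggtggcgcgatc
An NF-kB match was found in all 3 windows and an exact match to the response element core in that of B2m. Stretches that differ from the core by a base were not marked. The windows of H2-D1 and H2-K1 may therefore still hold a variant of the element. In H2-D1 and H2-K1 the capitals cover 2 NF-kB matches that lie 1 base apart and overlap. Over all genes with a listed promoter, 3.46% held the response element core and 4.46% the NF-kB match in a window of this length. Of the 27 listed genes of the interferon and antigen presentation list, 13 (48.1%) held the former and 6 (22.2%) the latter. A match describes letters and is not evidence of binding.

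Several complement genes were higher in the PD-1 inhibitor library. Of 11 measured genes of the complement, chemokine and acute phase list, 4 were more than 1.5-fold higher and 1 lower, against 3.69% and 3.87% of all genes, and the median log2 ratio was 0.35. C4b, a component of the classical complement pathway whose gene lies at chr17:34728380-34743882 (GRCm38), had 280.3 CPM in control and 517 after PD-1 inhibitor, a log2 ratio of 0.88 (interval 0.64 to 1.14). The ratio of C4b was 0.97 in cluster 1 (interval 0.64 to 1.31), 0.43 in cluster 2 and 0.59 in cluster 3, and the last 2 intervals included 0. In all other nuclei it was 0.21, and with the nuclei that failed on the fibroblast sum added back it was 0.57. C1ra, a protease of the first complement complex, had 325 and 539 CPM, a log2 ratio of 0.73 (interval 0.50 to 0.97). The adhesion molecule gene Vcam1 had only 31 and 71 UMIs, a ratio of 0.78 (interval 0.16 to 1.45). C3, by far the most abundant, had a ratio of -0.03, so that the summed list gave 0.17 (interval 0.12 to 0.22), below the 0.40 of all other nuclei. Il33, an alarmin cytokine kept in the nucleus, was the member that was lower, with 158 UMIs in control and 139 after PD-1 inhibitor. It had 234 and 156 CPM, a log2 ratio of -0.59 (interval -0.93 to -0.25).

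**Figure D4:**
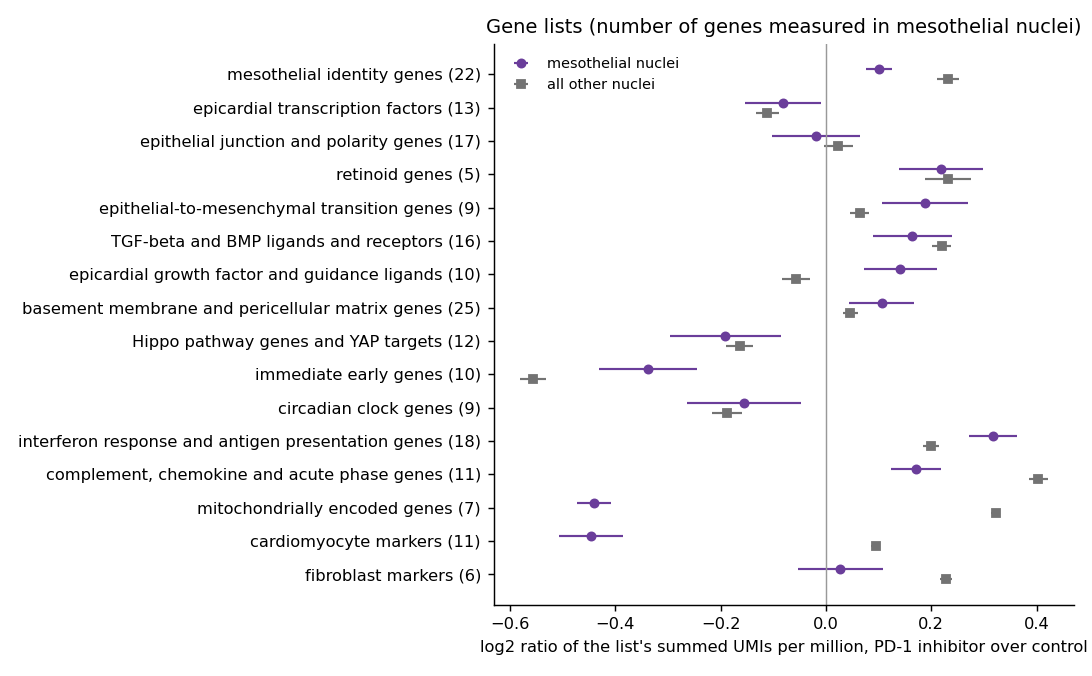
Log2 ratio of summed CPM, PD-1 inhibitor over control, for each gene list with at least 5 genes measured, in mesothelial nuclei (circles) and all other nuclei (squares); lines are 95% counting intervals and the number of genes measured stands in brackets. Among mesothelial values the interferon and antigen presentation list is highest at 0.32, and the mitochondrially encoded genes and cardiomyocyte markers are lowest at -0.44 and -0.45, where other nuclei lie above 0.

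Immediate early genes, which cells switch on within minutes of a stimulus and which tissue handling can also switch on, were read as a list. Of 10 measured, 0 were more than 1.5-fold higher and 4 more than 1.5-fold lower, against 3.69% and 3.87% of all genes, and the median log2 ratio was -0.32. Ccn1, a matricellular protein gene, had 89 UMIs in control and 30 after PD-1 inhibitor, or 132 and 33.6 CPM. Its log2 ratio was -1.96 (interval -2.62 to -1.36), and it was -1.84 in all other nuclei. Dusp1, a phosphatase that switches off MAP kinases, had 74 and 33 UMIs and a ratio of -1.56 against -1.01 elsewhere. Jun had 64 and 47 UMIs and a ratio of -0.85, and Junb had 62 and 49 and a ratio of -0.74. Jund and Klf2, the most abundant, had ratios of 0.12 and 0.16. Summed, the list gave -0.34 in mesothelial and -0.56 in all other nuclei, so both kinds of nuclei lay below 0, and the part of handling in this was not tested.

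Ccn1 is also a target of YAP, the effector of the Hippo pathway. Of 12 measured Hippo genes and YAP targets, 0 were past 1.5-fold upward and 3 downward, where all genes had 3.69% and 3.87%, and the median log2 ratio was -0.16. Beside Ccn1 these were Ankrd1, which cardiomyocytes also express strongly, and Ajuba, a scaffold protein that restrains the pathway's kinases. Ankrd1 had 93 and 54 UMIs and a ratio of -1.18, which was -0.45 without clusters 4 and 5. Ajuba had 66 and 52 UMIs and a ratio of -0.75 (interval -1.30 to -0.20). Tead1, the transcription factor partner of YAP, had 338 and 306 CPM, a ratio of -0.15. Its motif GGAATG was found on either strand in the 250 bases upstream of 32 of the 196 listed genes that were more than 4-fold higher in mesothelial nuclei (16.3%), and of 14.4% of all listed genes.

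Epicardial transcription factors showed little difference between the libraries. Of 13 measured, 0 were past 1.5-fold upward and 1 downward, against 3.69% and 3.87% of all genes, and the median log2 ratio was -0.03. Meis1, a homeobox cofactor, was the lower one, with 501 CPM in control and 322 after PD-1 inhibitor, a ratio of -0.64 (interval -0.87 to -0.41). The related Meis2 had 762 and 749. Tbx18, which marks the embryonic epicardium, had 307 and 365, a ratio of 0.25 (interval -0.01 to 0.51). Tcf12, an E-protein, had 351 and 274, a ratio of -0.36 (interval -0.62 to -0.09), near the -0.31 of all other nuclei. Gata5 had 96.4 and 71.7, with an interval that included 0.

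Among retinoid genes, 5 of 17 were measured and 0 were past 1.5-fold, where 3.69% of all genes were upward and 3.87% downward. Aldh1a2, which makes retinoic acid, was at least 12.6-fold higher than in other nuclei and level between the libraries, with 432 and 433 CPM. Rarres2, which encodes the adipokine chemerin, had 2064 and 2556, a log2 ratio of 0.31 (interval 0.21 to 0.41) beside 0.45 in all other nuclei. Epithelial junction and polarity genes had 17 measured members, 0 past 1.5-fold beside the same shares of all genes, and a median of 0.01. Cldn15, a claudin, had 633 and 650.5 CPM, and Tjp1, a tight junction scaffold, had 172 and 236, a ratio of 0.45 (interval 0.12 to 0.80).

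Ligands that the epicardium sends to the heart were mostly level or slightly higher. Of 10 measured, 0 were past 1.5-fold upward and 1, Vegfa, downward, against 3.69% and 3.87% of all genes. Sema3c, a semaphorin that guides vessels and nerves, had 793 and 1059 CPM, a log2 ratio of 0.42 (interval 0.26 to 0.57), and Sema3d had 819 and 865. Wnt5a, a non-canonical Wnt, had 171 and 251, a ratio of 0.55 (interval 0.23 to 0.89), beside 0.52 in all other nuclei. Rspo1, an R-spondin, had 432 and 465. Vegfa, the main endothelial growth factor, had 212 and 107, a ratio of -0.98 (interval -1.37 to -0.60). Cluster 4 held 63 of its 143 control UMIs and 18 of its 96 PD-1 inhibitor UMIs, and without clusters 4 and 5 the ratio was -0.45.

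Matrix and TGF-beta genes were considered because the study concerns collagen. Col3a1 and Col1a1, both used in the rule's fibroblast sum, had log2 ratios of 0.02 (interval -0.08 to 0.13) and 0.44 (interval 0.09 to 0.79). That sum had to stay below a nucleus's marker UMIs, whose median was 12 in control and 17 after PD-1 inhibitor. The part of this limit in both ratios was not tested. Col1a2, outside the rule, had a log2 ratio of 0.08 (interval -0.13 to 0.28). Of 25 measured basement membrane and pericellular matrix genes, 2 were more than 1.5-fold higher and 2 lower, beside 3.69% and 3.87% of all genes. Col18a1, the source of endostatin, had 21 and 82 UMIs, a ratio of 1.53 (interval 0.85 to 2.33), beside -0.10 in all other nuclei. Lamb1, a laminin chain, had 41 and 87 UMIs and a ratio of 0.67. Over the alternative settings described below, the ratio lay between 0.53 and 1.74 for Col18a1 and between 0.12 and 0.89 for Lamb1. The lower ones were the type IV collagen genes Col4a6, with 95 and 73 UMIs and a ratio of -0.78, and Col4a3, with 132 and 112 UMIs and a ratio of -0.64. Of 16 measured TGF-beta and BMP genes, 3 were more than 1.5-fold higher and 0 lower, beside 3.69% and 3.87% of all genes. These were Smad4, the common signal transducer, Bmp4, a ligand, and Eng, a co-receptor, with ratios of 0.80, 0.72 and 0.62 on 40, 34 and 65 control UMIs, and Eng gave -0.16 without nuclei that held 3 or more cardiomyocyte UMIs. Tgfb1 was barely present, with 8 and 16 UMIs, and Tgfb2, the isoform with the most UMIs, had 224 and 241 CPM. Of 9 measured genes of epithelial-to-mesenchymal transition, 1 was past 1.5-fold upward (3.69% of all genes were), Zeb2, a repressor of epithelial genes, with 82 and 165 UMIs and a ratio of 0.60 (interval 0.21 to 1.00). Vim had a ratio of 0.03.

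Clock genes were read because sampling time can differ between libraries. Of 9 measured, 3 were more than 1.5-fold lower and 1 higher, where all genes had 3.87% and 3.69%. Dbp, Tef and Csnk1d had ratios of -0.82, -0.73 and -0.65, and Arntl, which peaks in the opposite phase to Dbp, had 33 and 71 UMIs and a ratio of 0.69. The time of day of collection is not given in the sources used here. In all other nuclei Dbp and Tef had ratios of 0.69 and 0.41, opposite in sign to those of mesothelial nuclei. The Dbp value rests on 60 and 45 UMIs and was 0.98 after thinning to 500 UMIs per nucleus. The mesothelial ratio of Tef lay between -0.84 and -0.12 over the alternative settings described below.

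The single genes that differed most were taken from the 1654 genes with at least 200 mesothelial UMIs, of which 25 were past 1.5-fold in each direction. Being the extremes of that set, they are described and not tested. The highest was Csmd1, a large gene of a complement-regulating membrane protein at chr8:15892537-17535586 (GRCm38), with 81.6 CPM in control and 196 after PD-1 inhibitor. Its log2 ratio was 1.26 (interval 0.82 to 1.73), and all other nuclei had -0.43. It was 0.56 without nuclei that held 3 or more cardiomyocyte UMIs and 2.56 after thinning to 500 UMIs. In clusters 1, 2 and 3 it was 1.33, 0.93 and 0.85, and cluster 3, with the highest level, held 18 of 55 and 96 of 175 UMIs. Zbtb16, a zinc finger repressor, followed with 0.95, and its ratio was 0.10 in cluster 1 and 1.34 in cluster 3. Without cluster 3 it was 0.54. Adgrl3, an adhesion receptor, had 0.94, Anxa3, an annexin, 0.86, and Xkr4 0.85. Anxa3 had 248 and 451 CPM, and 0.27 without nuclei that held 3 or more cardiomyocyte UMIs. After thinning, Adgrl3 had 0.56 and Xkr4 0.30. Cnbp had a ratio of 0.82 and Zfp185 one of 0.76, and C4b and H2-Q6 were also among the highest. Zfp185, an actin-associated protein gene, was the one of these that was also characteristic of mesothelial nuclei, at least 13.2-fold above other nuclei.

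Of the 10 lowest, Ryr2, Ttn, Nexn and Fhl2 are expressed strongly by cardiomyocytes. Ryr2, the calcium release channel of heart muscle, had 396 CPM in control and 182 after PD-1 inhibitor, a log2 ratio of -1.12. Without clusters 4 and 5 it was -0.17. Ttn, which encodes titin, gave -1.02 and without those clusters -0.65, with -0.61 in cluster 1 and -1.09 in cluster 3. Nexn gave -0.79 and without them 0.93, and Fhl2 gave -0.75 and without them 0.32. All 12 listed cardiomyocyte markers together, of which 11 were measured, had 6624 and 4863 CPM in mesothelial nuclei, from Myh6 at 1464 and 923 downward, against 17806 and 19012 in all other nuclei. Their summed log2 ratio was -0.45 (interval -0.51 to -0.39) and without clusters 4 and 5 it was -0.12. At least 3 UMIs of Ttn, Ryr2, Myh6 and Tnnt2 together were present in 43.5% of control and 50.8% of PD-1 inhibitor mesothelial nuclei, whose depths differ. After thinning to 500 UMIs, Myh6 had a UMI in 28.4% and 28.6% of them and Ttn in 19.6% and 15.7%, against 57.3% and 59.2% for Myh6 and 38.7% and 37.3% for Ttn without thinning. In all other nuclei the thinned shares were 40.1% and 40.1% for Myh6 and 31.1% and 28.0% for Ttn. The part of other cells' RNA in these values was not tested. Gucy1a1, a subunit of soluble guanylate cyclase, kept its ratio, -0.79 and without those clusters -0.87. Fbxo11 gave -0.75 and -0.67, Fnip1 -0.74 and -0.52, Tef -0.73 and -0.84, and Pde4dip -0.79 and -0.44. Over all the alternative settings described below, Tef lay between -0.84 and -0.12.

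**Figure D5:**
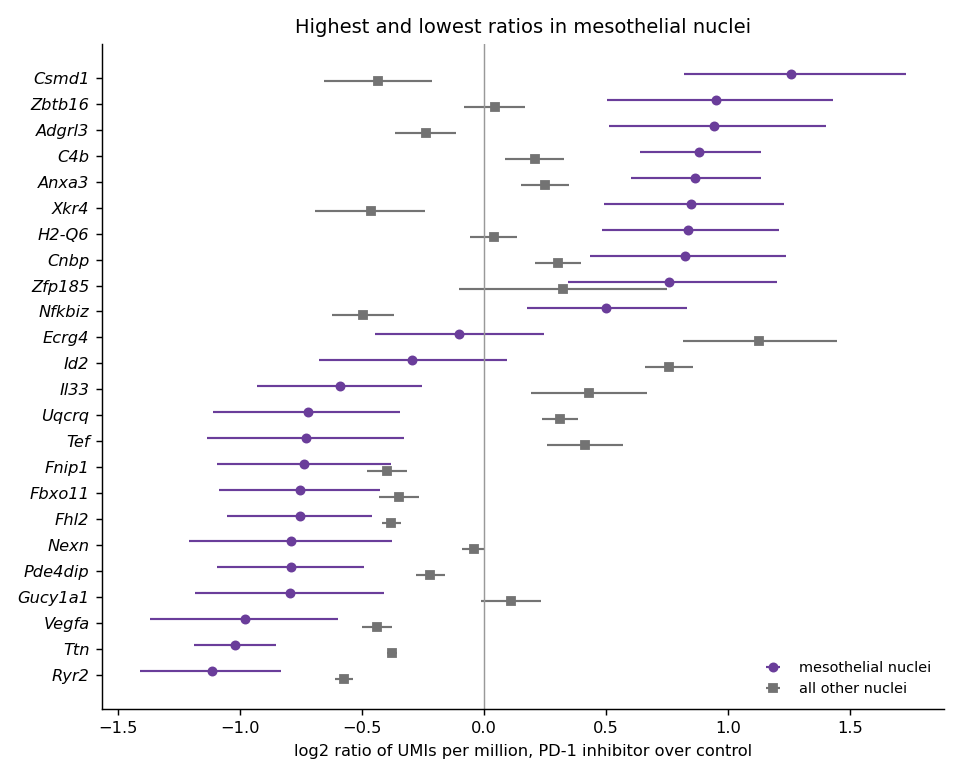
Log2 ratio of CPM, PD-1 inhibitor over control, in mesothelial nuclei (circles) and all other nuclei (squares) for the genes with the highest and lowest ratios and with the largest differences between the 2 kinds of nuclei; lines are 95% counting intervals. Csmd1, Adgrl3, Xkr4 and Nfkbiz lie above 0 in mesothelial and below 0 in other nuclei, and Il33, Uqcrq and Tef the other way round.

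Set against all other nuclei, the difference between the libraries depended on gene length in one population and hardly in the other. In all other nuclei, the median log2 ratio went from 0.29 in the 771 shortest genes (up to 13.9 kb) to -0.22 in the 770 longest genes (over 118 kb). In mesothelial nuclei the same medians were 0.07 and 0.01, and Spearman's rho with length across genes was -0.06. The 13 mitochondrially encoded genes, summed, also went opposite ways, with 23851 and 17573 CPM in mesothelial nuclei, a log2 ratio of -0.44 (interval -0.47 to -0.41), against 17405 and 21765 in all other nuclei, a ratio of 0.32. All 7 measured had a log2 ratio below 0 in mesothelial nuclei, mt-Cytb with 8346 and 5853. Summed by cluster, these genes lay above 0 only in cluster 4, at 0.56 (interval 0.48 to 0.65). Differences of ratio between the 2 populations therefore hold what moved in the other nuclei as well.

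Markers of other cell types were checked as whole lists. Of the 4 measured endothelial markers, Eng alone was past 1.5-fold, upward, where 3.69% of all genes were. Without nuclei that held 3 or more cardiomyocyte UMIs, the log2 ratio of Eng was -0.16. Summed over all listed genes, the 11 endothelial markers outside the rule had 1186 and 1152 CPM, the 12 fibroblast markers 3225 and 3287, and the 10 phagocyte markers 1099 and 1064. All other nuclei had 2987 and 3407, 10029 and 11750, and 1609 and 1896. Of the 4 measured phagocyte markers 1 was past 1.5-fold, Lyz2, with 96 and 59 UMIs, and the log2 ratio was -1.10, which was -0.00 without clusters 4 and 5. Kdr, counted among endothelial markers, was at least 2.99-fold higher in mesothelial than in other nuclei. Mural markers had 286 and 251 against 1487 and 1378 in all other nuclei, T cell markers 43.0 and 20.2 against 146 and 126, and B cell markers 44.5 and 24.6 against 318 and 145. Glial markers, with 305 and 223 against 250 and 238, were not lower in control. Their highest sum was 1039 CPM, in control cluster 3. Adipocyte markers, with 133 and 70.5 against 252 and 46.1, were not lower after PD-1 inhibitor. Cluster 5 held 70 of their 90 control UMIs and 59 of their 63 PD-1 inhibitor UMIs. The 10 lung epithelial and thymic markers had 40.0 and 38.1 CPM, against 67.9 and 66.6 in other nuclei, and Hopx, which the heart also expresses, held all but 1 of these 27 and 34 UMIs. Scgb1a1 had the remaining 1, and 8 genes had 0 UMIs in mesothelial nuclei, among them the surfactant genes Sftpa1 and Sftpc, and a count of 0 allows up to 3 UMIs. These genes do not tell the mesothelium of the heart from that of the pleura, which shares the markers of the rule. Proliferation markers had 11 and 5 UMIs in all.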

How the data were processed

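The authors deposited, for each of the 2 libraries, a matrix of counts: whole-number UMIs per gene and nucleus from a GEXSCOPE single-nucleus RNA kit, not normalized. The submitters' processing notes name mouse build GRCm38 (mm10), and the aligner and the counting settings are not given in the sources used here. All deposited nuclei had at least 500 UMIs, and those with over 20% mitochondrial UMIs were left out. Marker UMIs chose the members, as described in the report. Members and gene lists were chosen with earlier results of these data known.

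UMIs were summed over the mesothelial nuclei of each library and divided by their total to give CPM (per 1000000 UMIs). List sums cover all listed genes in the files, and list counts and medians the measured ones. Log2 ratios added 0.5 UMI to each sum. Intervals (95%) were exact: Poisson for levels, conditional binomial for ratios and Clopper-Pearson for shares. Genes needed 100 UMIs in both libraries together, or 50 in each against other nuclei. Past 1.5-fold (4-fold against other nuclei) counted as higher or lower, with no test. Clusters came from scanpy 1.11.5 (20 principal components, 15 neighbours, Leiden resolution 0.5). Named genes were, by rule, the rule genes, the 15 most mesothelial, the 10 highest and lowest ratios and the 5 highest and lowest differences from other nuclei among genes with 200 UMIs, the 4 most abundant and 3 most moved genes of each list and the 5 leading genes of each cluster. Others were chosen after their values were seen: Rbfox1, Cd274, Tgfb1, Tap1, Irf1, Junb, Arntl, Adgre1, Ctss, Ebf1, Gas1, Slpi, Anxa8, Lgals7, Cldn10, Podxl, Prg4, Calb2, Cldn1, Hopx, Scgb1a1, Sftpa1, Sftpc, Col4a3 and Col4a6. Some genes that the rule names are not reported here. Gene coordinates are GENCODE vM21, and promoter windows are RefSeq GRCm38.p6. Ratio and rule code was tested on simulated data. Doublets were not removed in the values reported; Scrublet removal was an alternative.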

Additional observations from a re-analysis of the deposited data

Results flagged for a closer look

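In some results the mesothelial nuclei and all other nuclei lay on opposite sides of 0, with both counting intervals off 0. All other nuclei are a pool of cell types whose mix differed between the libraries. The ratio of shares was 1.16 for fibroblast nuclei, and in this pool the summed log2 ratio was -2.45 for adipocyte and -1.14 for B cell markers. The part of this mix in the values below was not tested. The difference was not tested, since there was 1 library per condition, and each value here is the mesothelial log2 ratio of PD-1 inhibitor over control minus that of all other nuclei. Among genes above 0 in mesothelial nuclei and below 0 elsewhere, the difference was 1.69 for Csmd1, 1.31 for Xkr4, 1.18 for Adgrl3 and 0.995 for Nfkbiz, an NF-kB cofactor. Csmd1, Xkr4 and Adgrl3 are long genes, and in other nuclei the 770 longest of the measured genes had a median of -0.22. Among genes the other way round, it was -1.14 for Tef, -1.04 for Uqcrq, a subunit of respiratory complex III, and -1.02 for Il33. The mesothelial ratios themselves depended on the settings described below. At the weakest they were -0.12 for Tef, -0.26 for Uqcrq and -0.19 for Il33. For the genes above 0 the weakest were 0.56 for Csmd1, 0.30 for Xkr4, 0.56 for Adgrl3 and 0.28 for Nfkbiz. Among the lists the difference was 0.20 for growth factor and guidance ligands, -0.76 for mitochondrially encoded genes and -0.54 for cardiomyocyte markers. Within mesothelial clusters 1 to 5, the log2 ratio of cardiomyocyte markers was -0.03, 0.15, -0.20, -0.06 and 0.32. Cluster 4 held 2635 of their 4467 control UMIs and 1990 of their 4344 PD-1 inhibitor UMIs. Mitochondrially encoded genes gave -0.50, -0.58, -0.42, 0.56 and -0.19 in the same order.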

How the results depend on the processing

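No paired analysis was possible because each condition had 1 library. Over the 15 settings with values for single genes, 616 of 630 values of the 42 named genes past 1.5-fold had the reported sign, and 507 were also past 1.5-fold. These genes were taken for being past 1.5-fold in the same nuclei, and the settings reuse the same UMIs. A shared sign is thus largely built in and describes the processing only. The log2 ratio stayed between 0.44 and 0.62 for B2m, and the ratio of mesothelial shares between 1.12 and 1.36. Depth limits single genes, since 1654 of the 3851 measured had 200 UMIs or more. The cause of the changes below was not tested.

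Values that moved are log2 ratios of summed lists unless named otherwise. With at least 2 marker UMIs the control share was 4.12%, identity genes gave 0.13, mitochondrially encoded genes -0.32 and cardiomyocyte markers -0.17. With at least 5, the shares were 3.19% and 4.14%, and these lists gave 0.054, -0.49 and -0.27. With 2 different markers they gave 0.076, -0.34 and -0.12. With at most 5% mitochondrial UMIs, identity genes gave 0.14 and mitochondrially encoded genes -0.30. Without nuclei with 3 or more cardiomyocyte UMIs (213 and 182 nuclei left), the PD-1 inhibitor share was 3.95%, 51 genes were higher and 44 lower, identity genes gave 0.22, ligands 0.051, interferon genes 0.25, complement 0.25, mitochondrially encoded genes -0.38 and cardiomyocyte markers -0.053, and Ryr2 (0.45), Nexn (1.35), Fhl2 (0.53) and Eng (-0.16) changed sign. With the rule applied at 500 UMIs the PD-1 inhibitor share was 4.09%. Thinned to 500 UMIs, 25 genes were higher and 15 lower, immediate early genes gave -0.56, complement 0.23 and cardiomyocyte markers -0.10, and ligands (-0.0081), clock genes (0.0061), Nexn (0.27) and Dbp (0.98) changed sign. As means over nuclei, 245 genes were higher, transcription factors gave -0.15, ligands 0.059, immediate early genes -0.46 and cardiomyocyte markers -0.077, and Nexn gave 0.46. At the same mix of depths, identity genes gave 0.018, retinoid genes 0.14 and complement 0.10. With 50 UMIs asked for, 426 genes were higher and 474 lower. Leiden resolution 0.3 gave 4 clusters, none with the size of cluster 3, and resolution 1 gave 10. Values by cluster, and those without cluster 3, were read at the main resolution only.

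The next alternatives were chosen after seeing the data. Without clusters 4 and 5 the shares were 3.28% and 4.05%, 99 genes were lower, identity genes gave 0.052, complement 0.11, mitochondrially encoded genes -0.54 and cardiomyocyte markers -0.12, and Nexn (0.93), Fhl2 (0.32) and Rbm20 (0.79) changed sign. Without cluster 3, identity genes gave 0.18, transcription factors -0.19, ligands 0.061, immediate early genes -0.20, interferon genes 0.42, complement 0.23, mitochondrially encoded genes -0.30 and cardiomyocyte markers -0.29. With clusters 1 to 3 in the same mix, identity genes gave 0.072, transcription factors -0.18, complement 0.10 and mitochondrially encoded genes -0.51, and cardiomyocyte markers (0.019), Nexn (1.29), Fhl2 (0.42), Rbm20 (0.92) and Lyz2 (0.0100) changed sign. With the fibroblast sum left out of the rule, the shares were 5.18% and 6.39%, identity genes gave 0.073, complement 0.12 and cardiomyocyte markers -0.55.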
